A study of Mus musculus with 10 samples.

Results

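The interleukin-1 (IL-1) family and inflammasome genes were measured in the abdominal aorta of mice with chronic dermatitis. The 10 genes, of 18193 on the array with a symbol of their own, were Casp1, Il1a, Il1b, Il18, Il1rn, Il1r1, Il1r2, Il1rap, Nlrp3 and Pycard, and every probe set annotated to exactly 1 of these symbols was taken, which gave 19 of 45037 probe sets. RNA came from 6 KCASP1Tg mice and 4 WT mice, 1 GeneChip array per mouse, all female and 16 weeks old, and the WT mice were C57BL/6 littermates. These counts of mice follow the array labels, while the methods of the study give a smaller number of mice for the arrays. KCASP1Tg mice overexpress human caspase-1 in keratinocytes under the K14 promoter and develop dermatitis spontaneously. The transgene is thus driven by a keratinocyte promoter, its human transcript is not the mouse gene Casp1 read here, and whether it binds the mouse probes was not tested. The arrays are named KCASP1Tg 1 to KCASP1Tg 6 and WT 1 to WT 4.

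IL-1α and IL-1β are cytokines that signal through the receptor IL-1R1 and its partner IL-1RAcP, encoded by Il1rap. IL-1β and IL-18 are made as inactive precursors, and caspase-1 cuts them into their active forms after it has been recruited by the adaptor ASC, encoded by Pycard, to a sensor such as NLRP3, in the complex called the inflammasome. The antagonist encoded by Il1rn occupies IL-1R1 without signalling, and IL-1R2 is a decoy receptor that binds IL-1 and lacks the signalling domain. In the vessel wall IL-1β is known for inducing adhesion molecules and chemokines in endothelial cells.

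The tissue, labelled as dechorionated abdominal aorta, was checked first. Smooth muscle genes (Acta2, Myh11, Tagln, Cnn1 and Smtn) had a summed signal of 66403 to 80797 on 5 KCASP1Tg arrays and 69757 to 79886 on the WT arrays, and 30095 on KCASP1Tg 4. That array also stood apart in lymphocyte genes, with a summed signal of 16319 over 7 genes against 476 to 1856 on the other KCASP1Tg arrays and 414 to 1021 on the WT arrays. Fat was present on every array, with an Adipoq signal of 29503 to 45368 in KCASP1Tg and 30703 to 37705 in WT. Liver transcripts were high on 2 WT arrays, where Alb, the albumin gene, reached 43054 (WT 1) and 25226 (WT 3), and the summed signal of 6 heart muscle genes was 24430 on KCASP1Tg 1, 14080 on KCASP1Tg 2 and 47267 on WT 4, against 490 to 1788 on the other KCASP1Tg arrays and 2223 to 3215 on the other WT arrays. Krt14 had a signal of 1.39 to 43.3 in KCASP1Tg and 17.9 to 49.3 in WT, and 9 keratinocyte genes together gave 395 to 735 in KCASP1Tg and 535 to 669 in WT. In such bulk samples, fewer cells of a type and less RNA per cell cannot be told apart.

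None of the interleukin-1 and inflammasome genes passed the test over all probe sets. Casp1, Il1b, Pycard and Il1r2 had log2 fold changes of 0.58 to 1.27 in KCASP1Tg aorta, Il18 and Il1r1 had values near 0, and Il1rap had small negative ones. Testing was by limma, on probe sets that reached a signal of 100 on 4 or more of the 10 arrays, and those with a Benjamini-Hochberg adjusted p under 0.05 were called. Of the 19 probe sets, 8 were tested, and they represent 7 genes, as no probe set of Il1a, Il1rn or Nlrp3 was bright enough. Of these 8, 0 were called higher and 0 lower, where 0.0686% of all 26242 tested probe sets were called higher and 0% lower. Before adjustment 3 of the 8 had p under 0.05, all higher (Casp1, Il1b and Pycard), where 4.52% of all tested probe sets were higher by this rule and 3.42% lower. Their p-values from limma lay near the threshold, at 0.0417, 0.0399 and 0.0497. The number under 0.05 was 0 without KCASP1Tg 3, WT 2 or WT 4 and 1 without KCASP1Tg 4, WT 1 or WT 3. A fit with 1 array fewer also has less power, so these counts do not show that single arrays carried the differences. Without WT 2 the log2 fold changes of Pycard and Il1b rose to 1.02 and 0.84, while that of Casp1 fell to 0.53. By the exact Mann-Whitney test, which the study names for 2 groups, 0 of the 8 were called after adjustment and 1, Pycard, had an unadjusted p under 0.05, where 4.75% of all tested probe sets did so in the same direction. That count of 0 carries little information, as the smallest exact p of 6 arrays against 4 is 0.00952, and for the 769 tested probe sets that reached it the adjusted p was 0.325, so that none could pass. The median log2 fold change of the 8 was 0.34, beside a median of -0.00 over all tested probe sets. Il1r2, 1 of the 8, passed the filter only through its KCASP1Tg arrays, so this median is no measure of a shift of the family. The 8 all overlapped between the groups, where 1.98% of all tested probe sets lay higher on every KCASP1Tg array than on every WT array and 0.949% lay lower.

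**Figure D1:**
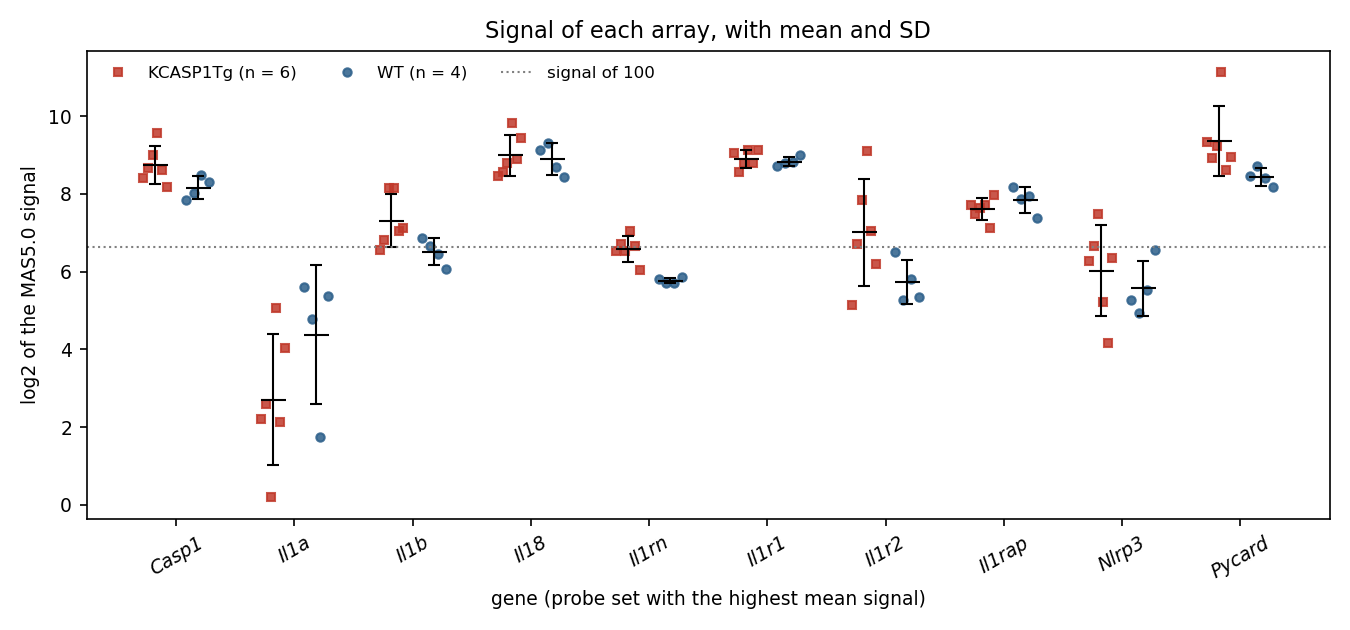
Log2 of the MAS5.0 signal of each of the 10 genes, from the probe set with the highest mean signal, in 6 KCASP1Tg mice (squares) and 4 WT mice (circles), with the mean and SD as lines and a signal of 100 as a dotted line. Il1a lies far below that line, and Il1rn is the gene whose KCASP1Tg points all lie above its WT points.

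The upstream DNA of the 3 genes that reached an unadjusted p under 0.05 is shown here, so that their start regions can be compared. Each line gives the 150 bases before the start site from RefSeq (GRCm38.p6), read 5′ to 3′ on the strand of the gene, which is chr9:5298367-5298516 (plus strand) for Casp1, chr2:129371140-129371289 (minus strand) for Il1b and chr7:127993868-127994017 (minus strand) for Pycard. Capitals mark the matches to the motifs named after the sequences.
Casp1: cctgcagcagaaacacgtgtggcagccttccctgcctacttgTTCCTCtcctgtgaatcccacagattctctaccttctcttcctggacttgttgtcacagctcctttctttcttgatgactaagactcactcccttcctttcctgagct
Il1b: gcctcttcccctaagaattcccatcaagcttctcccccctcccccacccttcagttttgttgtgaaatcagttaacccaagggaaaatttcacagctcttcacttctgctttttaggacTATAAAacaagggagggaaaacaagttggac
Pycard: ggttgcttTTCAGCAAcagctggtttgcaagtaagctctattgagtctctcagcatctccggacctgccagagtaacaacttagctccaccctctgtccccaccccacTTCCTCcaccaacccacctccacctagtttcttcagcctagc
The capitals in Il1b are a TATA box (TATAAA) that begins 31 bases before the start site. Those in Casp1, 108 bases before its start, and the second ones in Pycard, 42 bases before its start, are the core GAGGAA of PU.1, a transcription factor of myeloid and B cells, read on the other strand. The first in Pycard, 142 bases before its start, match TTGCNNAA, the motif of C/EBP factors, on the other strand. Both strands were searched, and no match overlapped another in these 3 windows. The TATA box was found in 7.57% of all 32851 windows of this length, the PU.1 core in 14.5% and the C/EBP motif in 5.46%. The NF-κB consensus, found in 2.38%, matched in none of the 14 windows of the 10 genes. A match is a string of letters and not a known site.

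Casp1 encodes mouse caspase-1, the protease of the inflammasome. Its signal was 292 to 756 in KCASP1Tg mice with a median of 402, and 231, 258, 361 and 315 on WT 1 to WT 4. The groups overlapped, with 4 of the 6 KCASP1Tg arrays above every WT array and the 2 highest signals, 756 and 517, on KCASP1Tg 4 and KCASP1Tg 3. By limma the log2 fold change was 0.58 (95% interval 0.03 to 1.14) and the adjusted p was 0.596. The fold change was 0.36 on the log2 scale without KCASP1Tg 3, KCASP1Tg 4 and WT 4, arrays left out together as a choice made after the data were seen.

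Pycard encodes ASC, the adaptor that joins the sensor to caspase-1. Its brightest probe set had a signal of 652, 489, 606, 2252, 393 and 491 on KCASP1Tg 1 to KCASP1Tg 6, and 352, 423, 342 and 288 on WT 1 to WT 4. KCASP1Tg 4 was far above the rest, and 4 of the other 5 KCASP1Tg arrays also lay above every WT array. Limma put the log2 fold change at 0.93 (95% interval 0.00 to 1.85), and the adjusted p was 0.628, and without KCASP1Tg 4 the fold change was 0.57. Without KCASP1Tg 3, KCASP1Tg 4 and WT 4 it was 0.43. The other probe sets of Pycard, 1417347_at and 1446926_at, stayed below a signal of 100 on every array and had log2 differences of -0.48 and -0.34, so that the 3 probe sets did not share a direction.

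Nlrp3, the sensor, was under the filter. Its only probe set had a signal of 18 to 180 in KCASP1Tg with a median of 79.6, and 38.3, 30.4, 46.0 and 94.0 in WT. The groups overlapped widely and the log2 difference was 0.46 (exact permutation p = 0.519). A signal of at least 100 was found on 2 KCASP1Tg arrays and on 0 WT arrays.

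Il1b, which encodes IL-1β, had a signal of 93.8, 113, 285, 285, 131 and 140 on KCASP1Tg 1 to KCASP1Tg 6, and 117, 101, 88.3 and 66.9 on WT 1 to WT 4. KCASP1Tg 3 and KCASP1Tg 4 carried the high values, and 4 of the 6 KCASP1Tg arrays lay above every WT array. By limma the log2 fold change was 0.79 (95% interval 0.04 to 1.54) and the adjusted p was 0.593. The fold change was 0.62 without KCASP1Tg 3 and 0.62 without KCASP1Tg 4, and it was 0.22 without those 2 and WT 4.

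Il18, which encodes the other cytokine cut by caspase-1, ranged from 351 to 908 in KCASP1Tg with a median of 459, and was 565, 638, 416 and 346 in WT. The WT values lay inside the KCASP1Tg range apart from the lowest, on WT 4. Limma put the log2 fold change at 0.10 (95% interval -0.54 to 0.73), and the adjusted p was 0.985. The sign turned without KCASP1Tg 4, at -0.07, and without WT 4, at -0.06.

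Il1a, which encodes IL-1α, was too dim to be read, with a signal of 1.14 to 33.3 in KCASP1Tg and 3.37 to 48.3 in WT, and 0 of 10 arrays reached 100. Its log2 difference of -1.67 (exact permutation p = 0.171) became -0.76 when signals below 16 were raised to 16 and -0.38 when 50 was added to each signal, so that its size rests on the transformation.

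Il1rn, which encodes the receptor antagonist, was the gene whose groups did not overlap, and it lay below the filter. On probe set 1451798_at the signal was 91.8, 104, 92.8, 133, 101 and 65.8 on KCASP1Tg 1 to KCASP1Tg 6, and 55.8, 52.6, 52.1 and 57.9 on WT 1 to WT 4. The WT mice were close together (54.6 ± 2.75, SD, n = 4) and every KCASP1Tg mouse was above them (98.1 ± 21.8, SD, n = 6). The log2 difference was 0.82, with an exact permutation p of 0.00476, the smallest that 6 arrays against 4 allow, and it is not adjusted for the other probe sets. When all probe sets were tested without the filter, the adjusted p of this one was 0.299 from limma. Among the 11 probe sets under the filter it was the 1 that did not overlap, where 0.702% of all probe sets under the filter lay above WT in this way. The other 2 probe sets of Il1rn overlapped, with log2 differences of 0.36 on 1425663_at and 0.51 on 1423017_a_at (exact permutation p = 0.367 and p = 0.548).

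Il1r1, the signalling receptor, had a log2 fold change close to 0. Its signal was 379 to 561 in KCASP1Tg with a median of 486, and 420, 443, 450 and 508 in WT. The WT range lay inside the KCASP1Tg range, and limma put the log2 fold change at 0.08 (95% interval -0.22 to 0.38), with an adjusted p of 0.958. A second probe set, 1459777_at, was at 0.749 to 20.2 in KCASP1Tg and 0.627 to 8.74 in WT, too dim to compare.

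Il1r2, the decoy receptor, had the widest spread among the genes tested. Its signal was 35.0, 105, 231, 551, 133 and 73.1 on KCASP1Tg 1 to KCASP1Tg 6, and 91.6, 38.9, 55.9 and 40.4 on WT 1 to WT 4. KCASP1Tg 4 and KCASP1Tg 3 were highest and KCASP1Tg 1 was lowest of all 10 arrays. By limma the log2 fold change was 1.27 (95% interval -0.16 to 2.71) and the adjusted p was 0.683. Without KCASP1Tg 4 the fold change was 0.85 on the log2 scale, and without KCASP1Tg 3, KCASP1Tg 4 and WT 4 it was 0.41. This probe set reached the filter through 4 KCASP1Tg arrays and 0 WT arrays, so that its entry into the test depended on the group where it was higher.

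Il1rap, the shared receptor partner, has 5 probe sets on the array. The brightest, 1421844_at, had a signal of 139 to 251 in KCASP1Tg with a median of 204, and 291, 232, 245 and 166 in WT. The groups overlapped, and limma put the log2 fold change at -0.23 (95% interval -0.65 to 0.19), with an adjusted p of 0.851. A second tested probe set, 1421843_at, gave -0.08 (adjusted p = 0.973). Of the 3 under the filter, 1442614_at and 1439697_at had log2 differences of 1.49 and -0.92 and stayed below 100 on every array.
The fifth, 1449585_at, followed single WT mice. It had a signal of 456 on WT 1 and 144 on WT 3, against 69.0 on WT 2 and 68.7 on WT 4, and 29.3 to 122 in KCASP1Tg. The log2 difference was -1.15 (exact permutation p = 0.0857) and -0.56 without WT 1. The liver genes Alb, Apoa1, Ttr and Fgb had their highest summed signals on those same arrays, 94729 on WT 1 and 46399 on WT 3, against 137 to 3128 in KCASP1Tg and 1385 and 5376 on WT 2 and WT 4, and liver is known to express Il1rap. The part of liver RNA in the Il1rap values was not tested.

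**Figure D2:**
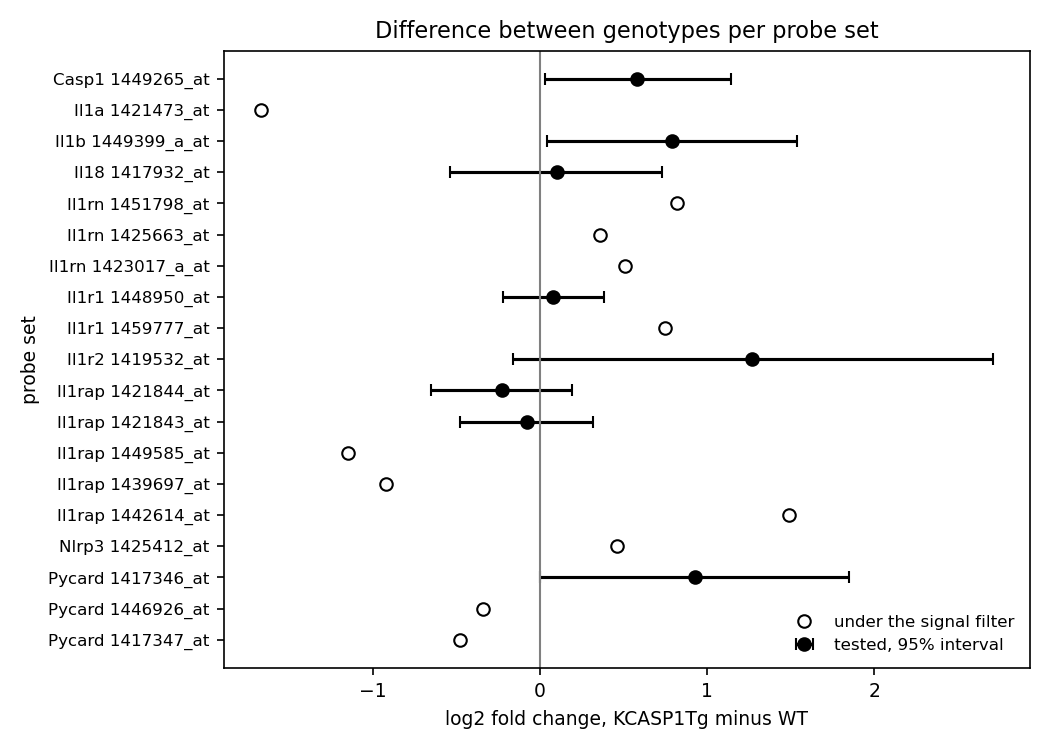
Log2 fold change (KCASP1Tg minus WT) of all 19 probe sets, with the 95% interval from limma for the 8 tested (filled points) and no interval for the 11 under the signal filter (open points). The intervals of Casp1, Il1b and the tested Pycard probe set begin at 0.03, 0.04 and 0.00, and the others cross 0.

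The highest values gathered on few arrays. KCASP1Tg 4 had the highest signal of all 10 arrays for Casp1, Il18, Il1rn, Il1r1, Il1r2 and Pycard, and KCASP1Tg 3 had the highest for Il1b and Nlrp3. Il1a and Il1rap were highest on WT 1. Neutrophil genes and monocyte and macrophage genes, each summed, were highest on the same arrays. Single genes could differ, as Cd14 did, with 792 on KCASP1Tg 4 against 1659 on KCASP1Tg 3. The summed signal of 10 monocyte and macrophage genes was 50363 on KCASP1Tg 4 and 34417 on KCASP1Tg 3, against 17415 to 26078 on the other KCASP1Tg arrays and 12742 to 19222 in WT, and 0 of the 10 genes were called by limma, with 6 higher and 0 lower before adjustment, where 4.52% of all tested probe sets were higher and 3.42% lower. The summed signal of 9 neutrophil genes was 6780 to 59042 in KCASP1Tg, highest on KCASP1Tg 4 and then KCASP1Tg 3, and 686 to 881 in WT, and S100a8 and S100a9 were called higher. On KCASP1Tg 4 the summed signal of 3 lymph node genes was also high, at 23848, against 87.5 to 801 on the other KCASP1Tg arrays and 54.3 to 227 in WT, beside the lymphocyte genes given above. The part of these cells and tissues in the values of Casp1, Il1b, Il1r2, Il1rn and Pycard was not tested.

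**Figure D3:**
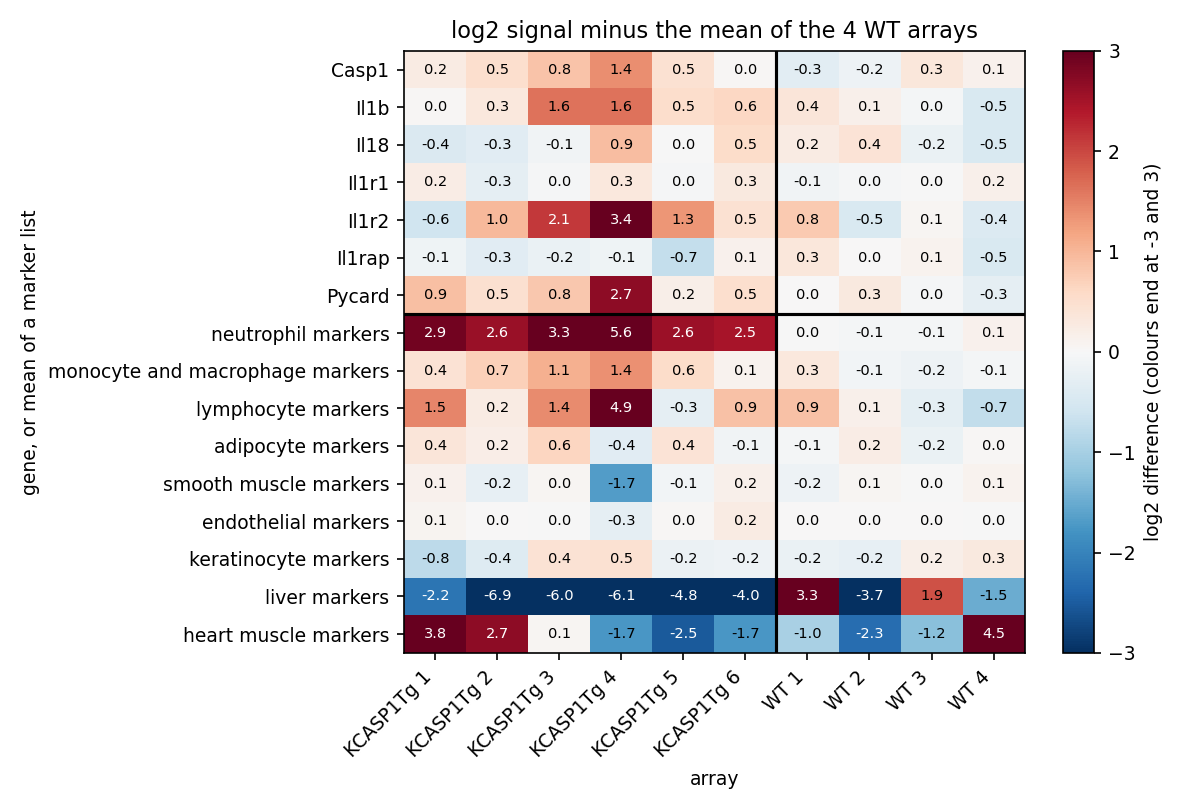
Log2 signal minus the mean of the 4 WT arrays for the 7 genes tested (above the line) and for the mean of 9 marker lists (below it), on each KCASP1Tg and WT array, with colours that end at -3 and 3. KCASP1Tg 4 reads 1.4 for Casp1, 1.64 for Il1b, 3.37 for Il1r2 and 2.69 for Pycard, and 5.57 for the neutrophil list and -1.68 for the smooth muscle list.

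Genes with the most similar pattern were found by the Pearson correlation of log2 signals over the 10 arrays, among 12294 other genes, as a description in which all points share the same mice. Pycard was closest to Dock2 (r = 0.988), Ptpn22 (r = 0.987) and Nckap1l (r = 0.984), which are genes of blood cells, and each had its highest signal on KCASP1Tg 4. Il1r2 was closest to Cd300c2 (r = 0.952), a receptor of myeloid cells, Fip1l1 (r = 0.951) and Kdm2b (r = 0.946). Casp1 was closest to Eaf2 (r = 0.958), Eed (r = 0.948) and Tmem123 (r = 0.948), and Il1b to Marchf7 (r = 0.955), Ccdc9 (r = 0.947) and Setd2 (r = 0.947). Il18 was closest to Mmgt2 (r = 0.981), Slc30a7, a zinc transporter (r = 0.966), and Psmb10, an immunoproteasome subunit (r = 0.941). Il1r1 was closest to Als2cl (r = 0.935), Gatad2b (r = 0.903) and Pdzd8 (r = 0.891). Il1rap was closest to Gpld1, a phospholipase made by liver (r = 0.895), Ttc39c (r = 0.894) and Castor2 (r = 0.884). Among the 7 genes themselves the highest correlation was that of Il1b and Il1r2 (r = 0.90), both high on KCASP1Tg 3 and KCASP1Tg 4, and Il1b and Il1r1 had r = 0.15.

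Ratios of 2 genes on the same array do not depend on the scaling of the array, and 3 were compared by exact two-sided permutation tests. As the genes are read by different probes, the height of a ratio has no meaning of its own and only its difference between the groups is read. The log2 ratio of agonist to antagonist, Il1b to Il1rn, was 0.03, 0.13, 1.62, 1.10, 0.37 and 1.09 in KCASP1Tg and 1.07, 0.94, 0.76 and 0.21 in WT. The means were 0.72 in KCASP1Tg and 0.75 in WT, and the difference of -0.02 was far inside the spread between mice (adjusted p = 0.933, exact permutation test). The KCASP1Tg values spread wider than the WT values, with 3 of 6 above every WT array and 2 below every one. The log2 ratio of decoy to signalling receptor, Il1r2 to Il1r1, was -1.90 ± 1.39 in KCASP1Tg (SD, n = 6) and -3.09 ± 0.66 in WT (SD, n = 4), a difference of 1.19 (adjusted p = 0.221, exact permutation test) with 4 of 6 KCASP1Tg arrays above every WT array. As Il1r1 differed by 0.08, this ratio mostly repeats the 1.27 of Il1r2 and is no separate result. Il1r2 reached 100 on 4 KCASP1Tg and 0 WT arrays, and Il1rn on 3 and 0, so both ratios rest on dim signals.
The log2 ratio of the 2 caspase-1 substrates, Il1b to Il18, was -1.90, -1.74, -0.63, -1.67, -1.86 and -2.32 in KCASP1Tg and -2.27, -2.66, -2.24 and -2.37 in WT. It was above every WT array on 5 of 6 KCASP1Tg arrays, and the mean difference was 0.70. The exact permutation p was 0.0333 and the p adjusted over the 3 ratios was 0.1, which does not pass. With a WT array left out the adjusted p was 0.196 to 0.321. It passed under 1 of 13 alternatives, at 0.0238 by the exact permutation test, when KCASP1Tg 6 was left out, and as that array is the one that ran against the difference, this pass adds no support.

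**Figure D4:**
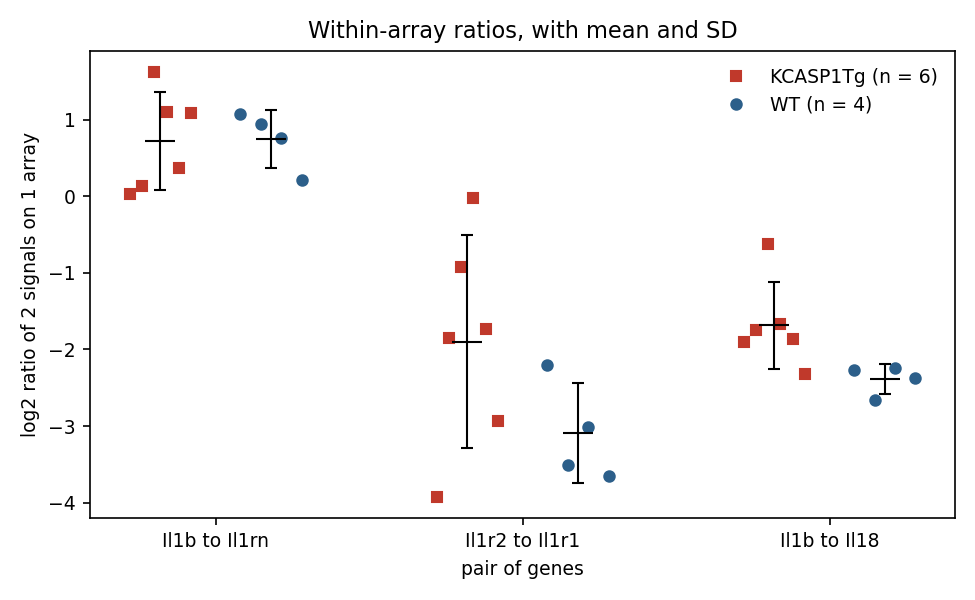
Log2 ratio of the signals of 2 genes on the same array for 3 pairs of genes, in 6 KCASP1Tg mice (squares) and 4 WT mice (circles), with the mean and SD as lines. For Il1b to Il18, 5 of 6 KCASP1Tg points lie above all WT points, while for Il1b to Il1rn 3 of 6 KCASP1Tg points lie above all WT points and 2, at 0.03 and 0.13, lie below them all.

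The rest of the pathway was described from lists of genes by their counts. Of 6 other ligands and binding proteins of the family 4 were tested and 0 were called by limma in either direction, and before adjustment 1 was higher and 0 lower (4.52% and 3.42% of all tested probe sets). Their median log2 fold change was 0.24, beside -0.00 over all tested probe sets. Il36g, the cytokine IL-36γ of epithelia and myeloid cells, had the largest difference among them, with a signal of 115 ± 51.9 in KCASP1Tg (SD, n = 6) and 44.1 ± 32.7 in WT (SD, n = 4), which was 1.96 on the log2 scale (adjusted p = 0.554 from limma), and its groups overlapped. The WT signals of Il36g were 33.1, 3.41, 76.5 and 63.5, with the dimmest on WT 2. As with Il1r2, this probe set entered the test through 4 KCASP1Tg arrays and 0 WT arrays, and it is the 1 counted as higher. Il33, an alarmin of stromal cells, had 974 ± 240 in KCASP1Tg and 865 ± 240 in WT, which was 0.17 on the log2 scale (adjusted p = 0.94). Of 6 other receptors 2 were tested, Sigirr, an inhibitory receptor, with 0.02, and Il1rl2, the receptor for IL-36, with -0.11, and neither passed by limma, adjusted or not. Both chains of the IL-18 receptor were under the filter, where Il18r1 reached 460 on KCASP1Tg 4 against 46.7 to 121 on the other KCASP1Tg arrays and 31.9 to 61.8 in WT. The second chain, Il18rap, had 77.1 to 342 in KCASP1Tg and 32.2 to 93.4 in WT. Its log2 difference was 1.47, its groups overlapped, and its highest signals were on KCASP1Tg 4 and KCASP1Tg 3.

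Of 13 genes that carry the signal from the receptor, all were tested and 0 were called by limma, with 1 higher and 0 lower before adjustment (4.52% and 3.42% of all tested probe sets) and a median log2 fold change of 0.04. Irak3, an inhibitory kinase of the family, had 0.43 (adjusted p = 0.569 from limma), and Myd88, the adaptor of IL-1 and Toll-like receptors, had 0.27 (adjusted p = 0.743). Peli1 and Peli2, ubiquitin ligases, had 0.33 and -0.18. Of 9 core genes of NF-κB 8 were tested and 0 were called, with 2 higher and 0 lower before adjustment (4.52% and 3.42% of all tested probe sets) and a median of 0.23. Nfkbia, which encodes the inhibitor IκBα and is itself induced by NF-κB, had a signal of 7829 to 15663 in KCASP1Tg and 6742 to 8199 in WT, and limma put the log2 difference at 0.56 with an adjusted p of 0.461. Nfkbib, a second inhibitor, had 0.26 (adjusted p = 0.559) with every KCASP1Tg array above every WT array, as in 1.98% of all tested probe sets, Relb 0.35 and the kinase gene Ikbkb 0.16.

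Of 16 other inflammasome sensors and partners 12 were tested and 0 were called by limma, with 1 higher and 0 lower before adjustment (4.52% and 3.42% of all tested probe sets), and the median log2 fold change was 0.36. Ninj1, which ruptures the membrane of dying cells, had 0.43 (adjusted p = 0.543 from limma), Mefv, which encodes the sensor pyrin, 0.55 (adjusted p = 0.704), and Casp8 0.29. P2rx7, the ATP receptor upstream of NLRP3, had -0.34 (adjusted p = 0.699). Gsdmd, the pore-forming substrate of caspase-1, was in the list as well, with 0.38 (adjusted p = 0.815).

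Of 16 genes known to respond to IL-1, 11 were tested and 0 were called higher or lower by limma, with 4 higher and 0 lower before adjustment (4.52% and 3.42% of all tested probe sets), and the median log2 fold change was 0.63. Of the 11, 5 had every KCASP1Tg array above every WT array, where 1.98% of all tested probe sets did. Nfkbiz, a regulator of NF-κB target genes, had a signal of 624 to 948 in KCASP1Tg and 434 to 557 in WT, which limma put at 0.66 on the log2 scale (adjusted p = 0.126). Lcn2, also a gene of neutrophil granules, had 585 to 4275 in KCASP1Tg and 97.3 to 252 in WT (adjusted p = 0.119 from limma). Socs3, Icam1 and Tnfaip3 did not overlap either (adjusted p = 0.303, 0.592 and 0.665 from limma). The gap was narrow for Tnfaip3, with a lowest KCASP1Tg signal of 344 against a highest WT signal of 343. The other tested genes overlapped, with log2 fold changes of 0.68 (Mmp3), 0.38 (Vcam1), 0.37 (Cxcl1), 0.08 (Saa3), -0.14 (Ccl2) and -0.24 (Zc3h12a). The summed neutrophil and macrophage genes were highest on KCASP1Tg 4 and KCASP1Tg 3, as given above, and their part in the values of the IL-1 response genes was not tested. These genes respond to other cytokines too, and the list is not specific for IL-1. Il6 and Csf3, cytokine genes of the list, were under the filter.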

How the data were processed

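GeneChip mouse arrays were read with MAS5.0 by the authors, who gave every array a trimmed mean of 500. On a linear scale, the deposited table has 1 signal intensity per probe set and array, and without the outer 2% at each end these averaged 500.0 on all arrays. No aligner or depth applies, and the number of arrays limits the precision. Of 45101 probe sets 64 controls were left out, and of the rest 34945 have 1 gene symbol, 932 several and 9160 none. Symbols were updated through the gene identifier (34741 matched), and genes of the lists that had no match were not analysed here. In the pathway lists these were Nfkb1, Chuk, Irak4, Il1rl1, Il36rn, Nlrc4, Nlrp1a, Nlrp1b and Naip1, and the list sizes given leave them out.

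Following the methods, a floor of 1 was applied before log2 values were taken. The 26242 probe sets that reached a signal of 100 on 4 or more arrays entered limma 3.58.1 in R 4.3.3, with genotype as the term and Benjamini-Hochberg adjustment over all of them. Probe sets under that filter were compared by a two-sided exact permutation test of the mean difference. The probe set with the highest mean signal stood for a gene. The genes named are the 10 members, up to 4 genes of each pathway list with the smallest p, called genes and defining markers of the cell type lists and the 3 genes with the most similar pattern to each member. Gsdmd, Tnfaip3, Il6, Csf3, Il18r1, Il18rap, Sigirr and Il1rl2 were named after their values were seen. So were Mmp3, Vcam1, Cxcl1, Saa3, Ccl2 and Zc3h12a. The members and lists were chosen with earlier results of these data known. P-values rest on the spread between arrays, each read as a separate mouse, and no batch is given in the sources used here. On simulated data for 26242 probe sets, recovery was 52% for a log2 change of 1 and 98% for one of 4, and 5.65% of calls were false. The simulated noise was independent for each probe set, without the array-wide differences described above. It gave 177 calls, against 18 in the data, so these rates may not hold for the real arrays. Figures were drawn with matplotlib 3.10.9.

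Alternatives were the floor, a pseudocount, the filter, quantile normalization, median centring, array weights, an intensity trend, exact Mann-Whitney tests, a block for the replicate number, ratios over averaged probe sets and each array left out. Leaving out KCASP1Tg 3, KCASP1Tg 4 and WT 4 together was added after the data were seen.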

Additional observations from a re-analysis of the deposited data

Results flagged for a closer look

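Within each genotype, the highest or lowest mouse of each of the 19 probe sets was compared with the rest by the share of the range that its gap takes, on the linear signal. By this rule 3 of 38 groups had a mouse beyond the 95% limit, where chance gives about 1 in 20. On the log2 scale of the tests a high value stands out less, and the flags were not repeated there. Pycard (1417346_at) had a signal of 2252 on KCASP1Tg 4, and 393 to 652 on the other KCASP1Tg arrays. Il1rn (1425663_at) had a signal of 154 on KCASP1Tg 4, and 50.8 to 88.2 on the others. Il1rap (1442614_at) had a signal of 63.0 on KCASP1Tg 6, and 6.74 to 24.7 on the others, all of them dim.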

How the results depend on the processing

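Under all 21 alternatives 0 of the interleukin-1 and inflammasome probe sets were called higher or lower, although the exact Mann-Whitney test could call none, with a lowest adjusted p of 0.325 over all tested probe sets. Over all tested probe sets the 18 higher and 0 lower became 204 and 63 with array weights. They became 61 and 12 without KCASP1Tg 3, KCASP1Tg 4 and WT 4, and 0 and 0 by the exact Mann-Whitney test and under the replicate block. Under that block Pycard and Casp1 had an unadjusted p under 0.05 from limma. No WT array has the number of KCASP1Tg 5 or KCASP1Tg 6, so these 2 arrays add nothing to its genotype estimate. Lower counts were 1 with a floor of 16 or quantile normalization, 2 with a pseudocount of 50, no filter or median centring, and 3 with a filter at 200 or an intensity trend, beside 21, 17, 20, 16, 18, 18 and 22 higher in that order. With 1 array left out they ranged from 10 (without KCASP1Tg 1) to 61 (without KCASP1Tg 4) higher and from 0 to 8 lower. Deviations of KCASP1Tg and WT mice of the same replicate number correlated at 0.108, -0.314, -0.435 and -0.326. Mice of different numbers were not compared, so these values cannot show whether the numbers pair the mice.
The number of members with an unadjusted p under 0.05 fell to 0 without KCASP1Tg 3, without WT 2 or without WT 4, and to 1 without all of KCASP1Tg 3, KCASP1Tg 4 and WT 4. With array weights 2 were higher (Pycard and Casp1) and 1 lower. The lower one was Il1rap 1421844_at, at -0.44 (unadjusted p = 0.0243, adjusted p = 0.234 from limma). Without a filter it was 1 of 19 probe sets, of Il1rn, and without KCASP1Tg 1 Il1r2 took the place of Pycard. The sign turned for Il18 with array weights (-0.17) and without those 3 arrays (-0.22), and with 1 array left out its log2 fold change ranged from -0.07 to 0.23. With 1 array left out, Il1rap 1421843_at ranged from -0.14 to 0.05 and Pycard 1446926_at from -0.65 to 0.11. The Il1b to Il1rn difference turned to 0.09 with the pseudocount and 0.23 over the mean of the probe sets, and ranged from -0.20 to 0.12 with 1 array left out. The Il1b to Il18 difference ranged from 0.49 to 0.82 and passed under 1 of 13 alternatives, without KCASP1Tg 6 (adjusted p = 0.0238, exact permutation test), where the others ran up to 0.321. Il1rn 1451798_at did not pass without a filter (adjusted p = 0.299 from limma). It did not pass without those 3 arrays either (exact permutation p = 0.0571), where fewer arrangements of the arrays exist and the log2 difference was 0.74. Its smallest log2 difference was 0.49, with the pseudocount. The causes of these changes were not tested. Signals under 100 limit what can be read for Il1a, Il1rn and Nlrp3. They also limit Il1b and Il1r2, which reached 100 on 2 and 0 WT arrays.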
